A study of Bos taurus with 16 samples.

Results

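The genes described here encode the proteins of the mitochondrial ribosome, with symbols that start with MRPL (large subunit) or MRPS (small subunit) followed by a number. They were taken by symbol from the 3 deposited expression tables. This gave 78 genes, 49 MRPL and 29 MRPS, of the 38959 genes listed in the first blastocyst table and of the 37429 listed in the second. In the table of bovine embryonic stem cells (bESCs) 77 of 28303 genes had such a symbol, 48 MRPL and 29 MRPS, and MRPL14 was not among them.

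The mitochondrial ribosome translates the few messenger RNAs that the mitochondrial genome encodes, all of which give subunits of the respiratory chain and ATP synthase. Its own proteins are encoded in the nucleus, made in the cytosol and imported. Some have a counterpart in the bacterial ribosome and others exist only in mitochondria. The names do not always give the place: MRPS18A and MRPS30 are built into the large subunit, and MRPS36 is now known as a subunit of the 2-oxoglutarate dehydrogenase complex.

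RNA was sequenced from 12 single bovine blastocysts and from 4 bESC cultures, all wild type, with or without LY2955303 (LY), an inhibitor of retinoic acid receptor γ. The first table holds 3 DMSO vehicle blastocysts and 3 blastocysts given 10 μM LY from the 2-cell stage (LY10). The second holds 2 blastocysts each of cell2_LY (LY from the 2-cell stage), cell16_LY (LY from the 16-cell stage) and their vehicle LY_DMSO, and the labels give no dose for it. All embryos came from oocytes fertilized in vitro and, in both arms, the culture medium also held LIF, FGF2 and IGF1. The bESC table holds 2 cultures kept in TIFX medium (bESC_tifx) and 2 given LY in it (bESC_LY). The labels name neither a dose nor a vehicle for these cultures. The study describes 10 μM LY for 3 days against a DMSO control. TIFX holds inhibitors of MEK, tankyrase, DOT1L, FGF receptors and GSK3 with forskolin and LIF, and the cells grow on mouse embryonic fibroblasts. Each blastocyst is 1 library from a whole embryo, so fewer cells of a type and less RNA per cell cannot be told apart.

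Levels are given in FPKM, which are fragments scaled by gene length and by library size, so that genes can be compared. Changes are log2 fold changes of the normalized count, which is the number of reads scaled to a common library size. A gene is called when its unadjusted p in limma is under 0.05 and its log2 fold change is beyond 1 in either direction, the threshold of the study. Genes with a mean normalized count under 10 were not tested. The 3 tables were scaled apart from each other, and no test was run between them.

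The blastocysts had 7905768 to 17343140 reads on genes and the bESC cultures 29055323 to 31230432. Trophectoderm markers (CDX2, GATA3, GATA2, TFAP2C, KRT8 and KRT18) summed to 2568 to 9534 FPKM in the blastocysts, against at most 5.12 FPKM for 7 cumulus cell markers. By group the trophectoderm sums were 2568 to 6444 FPKM in DMSO and 3720 to 9534 in LY10, and 3955 to 4759 in LY_DMSO, 5004 to 7429 in cell2_LY and 5016 to 5027 in cell16_LY. In the second table the LY_DMSO blastocysts were thus below all others. The 6 oocyte markers summed to at most 4.04 FPKM, with cell2_LY (1.81 to 1.89 FPKM) below LY_DMSO (3.86 to 4.04 FPKM). The 6 fibroblast markers, all with reads in both groups, summed to 19.0 to 88.7 FPKM in the DMSO blastocysts and to 5.65 to 10.0 FPKM in the LY10 blastocysts. The 5 epiblast markers summed to 383 to 524 FPKM in DMSO, 574 to 875 in LY10, 503 to 647 in LY_DMSO, 356 to 484 in cell2_LY and 365 to 446 in cell16_LY. The part of these cell type markers in any result was not tested. In the bESC cultures the epiblast markers summed to 1006 to 1163 FPKM, although KLF17 was at 0 and SOX2 was not found by name. Fibroblast markers summed to 68.9 to 70.3 FPKM there. Trophectoderm markers summed to 98.6 to 296 FPKM, 5 hypoblast markers to 26.9 to 114 FPKM and the cumulus cell markers to 23.3 to 69.4 FPKM.

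All but 1 of the members could be tested in each table, 77, 77 and 76. Their mean levels in the first table ran from 5.33 FPKM for MRPL40 to 296 FPKM for MRPL39, with a median of 94.7 FPKM. In the second table they ran from 5.55 FPKM for MRPL40 to 245 FPKM for MRPL42, with a median of 84.3 FPKM. In the bESC cultures the median was 29.4 FPKM, and MRPL40 was the highest at 137 FPKM. Members took 0.549% to 0.999% of the reads of a blastocyst and 0.308% to 0.374% of the reads of a bESC culture. MRPL39, MRPL42 and MRPL20 were among the 5 highest members in both blastocyst tables. MRPL40, MRPS9, MRPS2 and MRPL4 were among the 5 lowest tested members in both.

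The order of the members was not alike in the blastocysts and the bESCs, and the tables rest on different gene models. MRPL40, a mitochondria-specific large subunit protein, is 1556 bases long in the blastocyst tables and 621 in the bESC table. In the blastocyst annotation it lies on chromosome 17 from 72692415 to 72696386 of ARS-UCD2.0 and overlaps HIRA on the other strand. In all, the span of 23 members overlapped another gene in the blastocyst annotation and that of 22 in the bESC annotation. The sources used here do not state that counting used strand, so reads of overlapping genes cannot be told apart with certainty.

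Both members below the test's minimum lie wholly inside another gene. Tested members do too: MRPL16 lies inside STX3 in both annotations, and MRPL35 inside ENSBTAG00000054778 in that of the bESCs. MRPL16 averaged 48.6, 58.3 and 60.6 FPKM in the first, second and bESC tables, and MRPL35 averaged 27.4 FPKM in the bESCs. The part of such an overlap in the counts was not tested. MRPS36 was listed at 0 reads in all 12 blastocysts. It lies on chromosome 20 from 10467519 to 10475679, inside LOC101902030 on the other strand, which had 730 to 1345 reads in each library of the first table and 739 to 1353 in the second. In the bESC table, where no such overlap was found, MRPS36 had 27.8 and 15.8 FPKM in bESC_tifx and 26.5 and 14.0 FPKM in bESC_LY. MRPL24 had a mean of only 0.957 normalized counts in the bESCs, where it lies inside HDGF on the same strand, and HDGF had 12842 to 16804 reads. In the blastocysts MRPL24 had 64.8 to 159 FPKM. With 0 reads counted, up to 3 may have been missed by counting error alone, equal to 4.09 normalized counts or fewer per blastocyst of the first table and 3.50 or fewer of the second. The tested members nearest to the minimum were MRPL40 in the blastocysts, at 88.3 and 131.6 normalized counts, and MRPL48 in the bESCs, at 258.

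The first comparison asked what LY did when given from the 2-cell stage. In LY10 blastocysts 6 members rose, namely MRPL2, MRPL49, MRPS5, MRPS2, MRPL37 and MRPL36, and 2 fell, MRPL33 and MRPS33. Over all 14249 genes tested, 6.20% were called higher and 8.51% lower, so 6 of 77 higher is near the background and 2 of 77 lower is below it. Their median log2 fold change was -0.11, against -0.05 over all genes, and 33 were above 0 and 44 below. Without DMSO replicate 3 the counts were 7 higher and 6 lower, where 9.46% and 14.7% of all genes were called. Without LY10 replicate 3 they were 6 and 5, where 6.03% and 7.63% of all genes were. Quantile normalization gave 4 and 3, where 7.54% and 6.17% of all genes were, with MRPS5 and MRPL37 no longer called.

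MRPL2, a core protein of the large subunit with a bacterial counterpart, lies on chromosome 23 from 16683878 to 16688839. It had 21.7, 28.2 and 32.5 FPKM in the DMSO blastocysts and 101, 111 and 76.1 FPKM in the LY10 blastocysts. Every LY10 blastocyst was above every DMSO blastocyst. This gave a log2 fold change of 1.80 (SE 0.26, 95% interval 1.21 to 2.40), with an unadjusted p of 8.04e-05 and an adjusted p of 0.0711 in limma. KLC4, which overlaps it on the other strand, had 43 to 181 reads in these libraries and differed by 0.96 on the log2 scale (SE 0.45).

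MRPL49, a mitochondria-specific protein of the large subunit, lies on chromosome 29 from 43328453 to 43332382. It had 17.1, 16 and 30.4 FPKM in DMSO and 55.2, 57.9 and 60.6 FPKM in LY10, again without overlap. Its log2 fold change was 1.51 (SE 0.29). SYVN1, a ubiquitin ligase gene that overlaps it on the other strand, went the opposite way, with a log2 fold change of -1.13 (SE 0.35).

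MRPL37, also mitochondria-specific, had 31.7, 37.4 and 49.6 FPKM in DMSO and 89.1, 81.7 and 67.4 FPKM in LY10, a log2 fold change of 1.02 (SE 0.25). Its call was lost when DMSO replicate 1, DMSO replicate 2, LY10 replicate 1 or LY10 replicate 2 was left out, and its log2 fold change was then as low as 0.87. MRPL36, one of the smallest large subunit proteins and one with a bacterial counterpart, had 21.7, 29.4 and 13.1 FPKM in DMSO and 75.9, 35.8 and 49.8 FPKM in LY10. The groups did not overlap, and the log2 fold change was 1.33 (SE 0.39).

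The small subunit proteins MRPS5 and MRPS2 both have bacterial counterparts. MRPS5 had 29.4, 29.1 and 33.1 FPKM in DMSO and 71.9, 56.7 and 61.9 FPKM in LY10, a log2 fold change of 1.05 (SE 0.22). Its call was lost without LY10 replicate 1. MRPS2 was one of the lowest members, with 7.95, 6.70 and 4.94 FPKM in DMSO and 26.8, 14.7 and 14.9 FPKM in LY10, a log2 fold change of 1.49 (SE 0.36). All 6 members that rose had LY10 blastocysts entirely above the DMSO blastocysts. This held for 16 members in all, and 27 had LY10 entirely below DMSO, where 13.8% and 14.4% of all genes did.

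The 2 members that fell encode small proteins. MRPL33, a large subunit protein with a bacterial counterpart, lies on chromosome 11 from 71932404 to 71940793 and is the shortest tested member at 448 bases. It had 187, 220 and 141 FPKM in DMSO and 59.7, 44.7 and 55.6 FPKM in LY10. Its log2 fold change was -1.76 (SE 0.26), with an unadjusted p of 0.000106 and an adjusted p of 0.0711 in limma. MRPS33, a mitochondria-specific protein of the small subunit, had 357, 483 and 263 FPKM in DMSO and 147, 114 and 191 FPKM in LY10, a log2 fold change of -1.28 (SE 0.29). In both genes every DMSO blastocyst was above every LY10 blastocyst, and both calls held when any library was left out, as did those of MRPL2, MRPL49, MRPS2 and MRPL36.

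**Figure D1:**
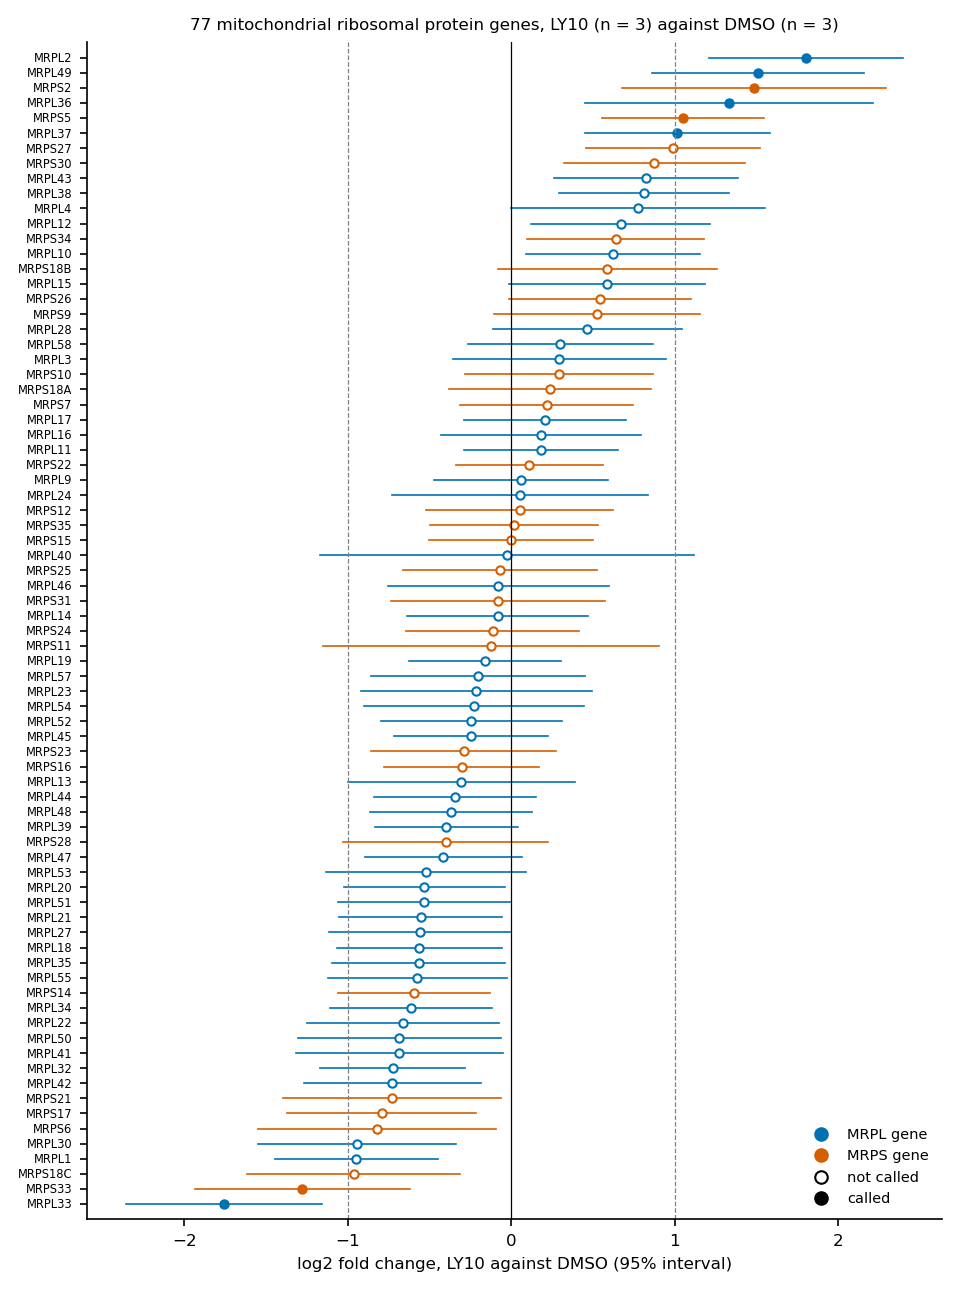
The log2 fold change of each of the 77 tested members in LY10 (n = 3) against DMSO (n = 3), with its 95% interval, ordered by size, in blue for MRPL and orange for MRPS genes, filled where called. The 6 members that rose stand at the top, the 2 that fell at the bottom, and both colours are spread over the whole range.

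With the p alone, 13 members were higher and 22 lower, where 10.8% and 12.2% of all genes were. The lower count depended on single libraries. It was 6 without LY10 replicate 2, where 9.24% of all genes were lower. Without DMSO replicate 2, LY10 replicate 1 and DMSO replicate 1 it was 11, 12 and 13, where 7.30%, 8.47% and 8.59% of all genes were. The share over all genes thus fell as well. The higher count ran from 10 to 17, where 7.43% to 14.8% of all genes were higher. The 7 that were higher but not past the fold included MRPS27 (log2 fold change 0.99), MRPS30 (0.88), MRPL38 (0.81) and MRPL43 (0.83). MRPL12 and MRPL10 were also among them, at 0.67 and 0.62. These build the flexible stalk that recruits translation factors, and MRPL11 at its base was at 0.18 (95% interval -0.29 to 0.65). The 20 that were lower but not past the fold included MRPL1 (-0.95), the protein of the stalk near the tRNA exit site, MRPL30 (-0.94) and MRPL32 (-0.72). MRPL32 had 205, 192 and 205 FPKM in DMSO and 118, 117 and 131 FPKM in LY10.

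After adjustment over all 14249 genes no member passed in limma, and 2 genes passed in all. The smallest adjusted p of a member was 0.0711. Leaving out DMSO replicate 3 gave 1963 genes and 14 members with an adjusted p under 0.05. Under voom weights on the recovered reads 0 members and 0 genes passed, and the calls were again 6 and 2.

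Members with other roles in the ribosome did not pass the test and had intervals that include 0. MRPL45, which faces the inner membrane at the tunnel exit, was at -0.24 (95% interval -0.72 to 0.23). MRPL58, a peptidyl-tRNA hydrolase built into the large subunit, was at 0.30 (-0.27 to 0.87), and MRPS18A was at 0.24 (-0.38 to 0.85). MRPS12, the decoding centre protein of the small subunit, was at 0.05 (-0.52 to 0.63), and its sign turned under quantile normalization and without some libraries. Of the 77 intervals, 32 lay wholly between -1 and 1.

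Both subunits and both origins held members in each direction. Of 30 large subunit proteins with a bacterial counterpart 2 rose and 1 fell, and of 21 mitochondria-specific ones (MRPS18A and MRPS30 included) 2 rose and 0 fell. In the small subunit 2 of 16 with a bacterial counterpart rose, and 1 of 10 mitochondria-specific ones fell. The medians of these groups were -0.19, -0.23, -0.12 and 0.06.

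The counts by p were also taken by gene length. The members were split at their median length of 1019 bases. Of the 39 members up to this length 3 were higher and 17 lower by p, with a median log2 fold change of -0.30. Of the 38 longer members 10 were higher and 5 lower, with a median of 0.09. Without LY10 replicate 2 the shorter members had 4 higher and 5 lower and the longer ones 12 and 1. Over all genes tested, the 1487 of at most 1019 bases went the same way, 41 higher and 436 lower with a median of -0.60, while the 12762 longer genes had a median of 0.01. Spearman's rho of the log2 fold change with length was 0.39 over the 77 members and 0.08 over all 14249 genes, a description across genes, which share the libraries and are not replicates. Its value was 0.34 to 0.41 over the members with each library left out. With the mean normalized count the rho was -0.50 over the members and 0.21 over all genes. In the second table the rho with length was -0.06 over the members in cell2_LY and -0.14 in cell16_LY, each against LY_DMSO. Over all genes it was 0.17 and 0.01. With the mean normalized count it was -0.42 over the members and -0.22 over all genes in cell2_LY. In cell16_LY these were 0.06 and -0.04, and in cell16_LY against cell2_LY 0.52 and 0.22. The part of length and of level in the result was not tested.

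**Figure D2:**
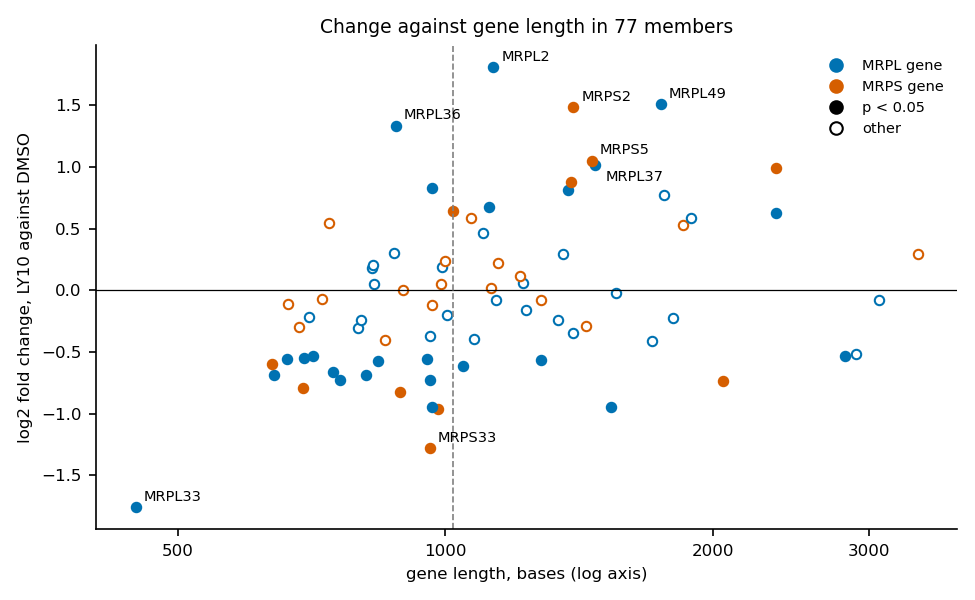
The log2 fold change in LY10 against DMSO of each tested member against its gene length in bases, on a log axis, filled where the unadjusted p is under 0.05, with a dashed line at the median of 1019 bases. Filled points below 0 lie mostly left of the line and filled points above 0 mostly right of it: 17 of the 22 lower members are at or left of the line and 10 of the 13 higher members are right of it.

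The second experiment repeated LY from the 2-cell stage. In cell2_LY blastocysts 13 members fell against LY_DMSO and 2 rose, where 8.34% of the 14529 genes tested were called lower and 8.71% higher. The members that fell were MRPS35, MRPS31, MRPL2, MRPL15, MRPS22, MRPS10, MRPL1, MRPL48, MRPS30, MRPL49, MRPL47, MRPL39 and MRPL32, and MRPL40 and MRPL36 rose. In all, 71 of 77 members were below 0, with a median log2 fold change of -0.56 against 0.00 over all genes. For 52 members both cell2_LY blastocysts were below both LY_DMSO blastocysts, and for 5 above, where 26.9% of all genes were in either case. With the p alone, 23 members were lower and 2 higher, where 13.5% and 11.1% of all genes were. No member had an adjusted p under 0.05 in limma, the smallest being 0.0716, and 2 genes did in all. With voom weights 0 members and 0 genes did.

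The size of this shift rested on 1 blastocyst. In cell2_LY replicate 1 the members summed to 4175 FPKM, the lowest of the 12 blastocysts, and replicate 2 reached 6562 FPKM against 7783 and 8365 in LY_DMSO. Of the 77 tested members 61 had their lowest level of the 6 libraries in replicate 1. Without it 4 members were called lower and 0 higher, where 6.11% and 4.85% of all genes were, and the median was -0.26. Without replicate 2 it was 29 and 2, where 12.9% and 10.5% of all genes were, with a median of -0.82. Without LY_DMSO replicate 1 it was 17 and 0, where 10.9% and 10.7% of all genes were. The library size that the FPKM of replicate 1 rest on was 1.23 times its reads on genes, and 0.949 to 1.04 times in the other 5 libraries. With reads on genes as library size 7 members were called lower and 2 higher, where 4.63% and 12.7% of all genes were. The median was then -0.32, but the median over all genes moved to 0.24. The difference between both medians was -0.56 with either library size. A change of library size moves all genes nearly alike, so this was fixed in advance and tells nothing about the shift. Quantile normalization gave 6 lower and 2 higher, where 7.43% and 7.98% of all genes were. Under it 6 of 77 lower is near the background, and the median was -0.29 against 0.01 over all genes.

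**Figure D3:**
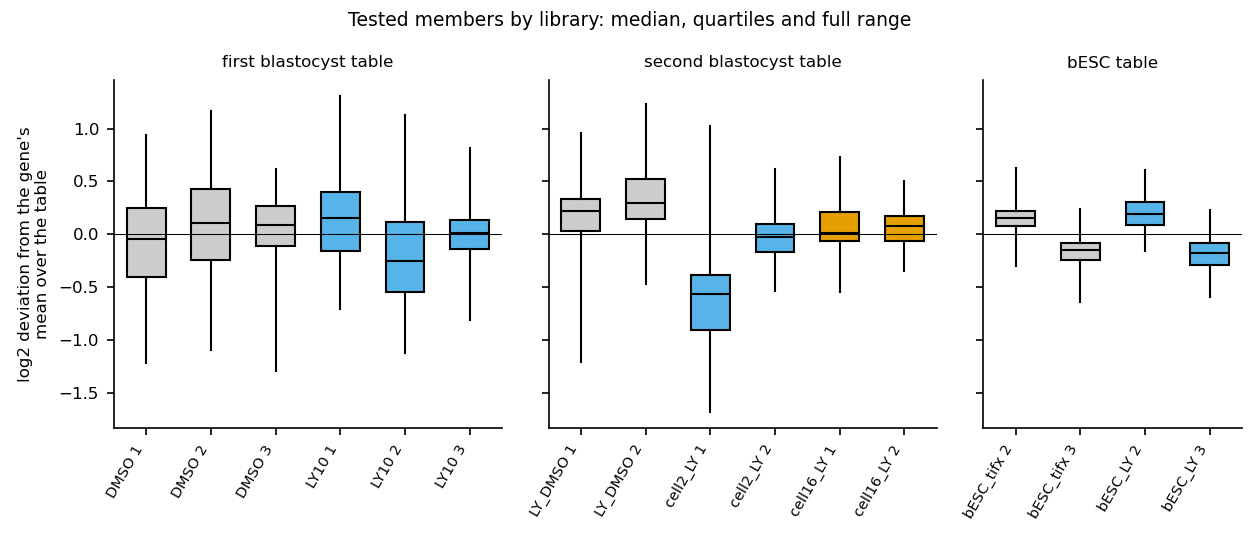
The log2 deviation of each tested member from its mean over its table, shown by library as median, quartiles and full range, for both blastocyst tables and the bESC table. In the second blastocyst table cell2_LY replicate 1 has a median of -0.57 and both LY_DMSO libraries have medians above 0, while in the bESC table the libraries sort by culture number.

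MRPS35, a mitochondria-specific protein of the small subunit, lies on chromosome 5 from 82081715 to 82125299. It had 91.0 and 107 FPKM in LY_DMSO, 21.3 and 42.0 FPKM in cell2_LY, and 69.1 and 65.8 FPKM in cell16_LY. The cell2_LY blastocysts were the lowest and the cell16_LY blastocysts stood between. The log2 fold change of cell2_LY was -1.72 (SE 0.34), with an unadjusted p of 0.000881 and an adjusted p of 0.0716 in limma. REP15 and LOC781532, which overlap it, had at most 22 reads.

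MRPS31, of the same class, had 63.1 and 106 FPKM in LY_DMSO, 19.7 and 31.3 FPKM in cell2_LY, and 44.2 and 46.4 FPKM in cell16_LY. Its log2 fold change was -1.72 (SE 0.35) in cell2_LY. LOC112449167, on its strand, had at most 1 read. MRPL2 had 101 and 91.3 FPKM in LY_DMSO, 23.3 and 43.7 FPKM in cell2_LY and 44.6 and 46.7 FPKM in cell16_LY, so all 4 LY blastocysts were below the vehicle. Its log2 fold change was -1.59 (SE 0.33), while KLC4 rose by 1.04 (SE 0.42). These 3 calls held when any 1 library was left out.

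MRPL15, a large subunit protein with a bacterial counterpart, had 126 and 153 FPKM in LY_DMSO, 69 and 64.8 FPKM in cell2_LY, and 92.4 and 88.2 FPKM in cell16_LY. With a log2 fold change of -1.05 (SE 0.24) MRPL15 was called, and the call was lost without LY_DMSO replicate 2. In 12 of the 13 members that fell, cell2_LY replicate 1 was below replicate 2, with MRPL15 the exception. The calls of MRPS22, MRPS10, MRPL1, MRPS30 and MRPL47 were each lost without cell2_LY replicate 1 alone. MRPL49 and MRPL39 lost theirs without cell2_LY replicate 1 or LY_DMSO replicate 1, and MRPL48 and MRPL32 without cell2_LY replicate 1 or LY_DMSO replicate 2. The calls of MRPL15, MRPL32, MRPL39, MRPL47, MRPL48 and MRPL49 were lost both with reads on genes as library size and under quantile normalization, which also lost that of MRPS10. On log2(FPKM + 1) the call of MRPL49 was lost. In none of the 13 did the sign turn under any alternative tried. For MRPL2, MRPL49 and MRPL47 an overlapping gene was called as well. KLC4 rose by 1.04 where MRPL2 fell by 1.59, and SYVN1 rose by 2.12 where MRPL49 fell by 1.02. ACTL6A fell by 2.60 where MRPL47 fell by 1.15.

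The 2 members that rose were both low. MRPL36 had 7.47 and 15.4 FPKM in LY_DMSO, 35.4 and 22.6 FPKM in cell2_LY and 11.9 and 24.6 FPKM in cell16_LY, a log2 fold change of 1.39 (SE 0.50) in cell2_LY. MRPL40 had 3.16 and 4.17 FPKM in LY_DMSO, 10.1 and 7.82 FPKM in cell2_LY, and 3.84 and 4.18 FPKM in cell16_LY, a log2 fold change of 1.28 (SE 0.40). HIRA, which overlaps it, had 24 to 66 reads per library and a log2 fold change of 1.12 (SE 0.64). Both calls were lost without cell2_LY replicate 1 or LY_DMSO replicate 1.

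Members of the stalk and of other roles were not called. MRPL12 was at -0.78 (SE 0.34) and MRPL11 at -0.57 (SE 0.30), while MRPL10 was at -0.09 and turned positive with reads on genes as library size and under quantile normalization. MRPL45 was at -0.58, MRPL58 at -0.33 and MRPS12 at -0.36, with intervals that include 0. MRPS18A was at -0.91 (SE 0.34), past the p but within the fold. MRPS2 was at 0.68 (SE 0.32) and MRPL54 at 0.21 (SE 0.27), with intervals that include 0. For proteins with a bacterial counterpart and mitochondria-specific ones the medians were -0.56 and -0.50 in the large subunit and -0.53 and -0.74 in the small.

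Both experiments gave LY from the 2-cell stage, and they can be set side by side but not tested against each other. Of the 77 members 10 had a p under 0.05 in both and 27 in neither. MRPL1, MRPL20, MRPL30, MRPL32 and MRPL35 were lower in both, and MRPL36 was higher in both. MRPL2, MRPL49, MRPS5 and MRPS30 were higher in LY10 and lower in cell2_LY, and 0 members went the other way. Of the 13019 genes tested in both tables, 6.36% had a p under 0.05 in both, 1.28% were lower in both, 0.661% higher in both, 3.40% higher in LY10 and lower in cell2_LY, and 1.02% the other way. Among the members these shares were 13.0%, 6.49%, 1.30%, 5.19% and 0%.

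For the 4 that went opposite ways the vehicle blastocysts of the 2 experiments stood at different levels. MRPL2 had 27.5 ± 5.47 FPKM (SD, n = 3) in DMSO and 96.1 ± 18 in LY10, against 96.0 ± 6.62 (SD, n = 2) in LY_DMSO and 33.5 ± 14.4 in cell2_LY. MRPL49 had 21.2 ± 7.99 and 57.9 ± 2.68 FPKM in the first experiment, and 56.9 ± 8.61 and 28.6 ± 8.93 FPKM in the second. MRPS5 went from 30.5 ± 2.22 to 63.5 ± 7.75 FPKM and from 74.7 ± 5.76 to 43.9 ± 12.8 FPKM. MRPS30 went from 39.9 ± 7.89 to 72.7 ± 9.16 FPKM and from 81.4 ± 16.2 to 35.2 ± 17.4 FPKM. For each, the vehicle mean of the second experiment was closer to the LY10 mean than to the DMSO mean of the first. This was not particular to them. It also held for MRPL1, MRPL20, MRPL30 and MRPL32, which were lower in both, but not for MRPL35 or MRPL36. MRPL1 had means of 209 FPKM in DMSO, 108 FPKM in LY10 and 130 FPKM in LY_DMSO. The share over all members or genes was not counted. The tables were scaled apart, so these levels are a description.

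**Figure D4:**
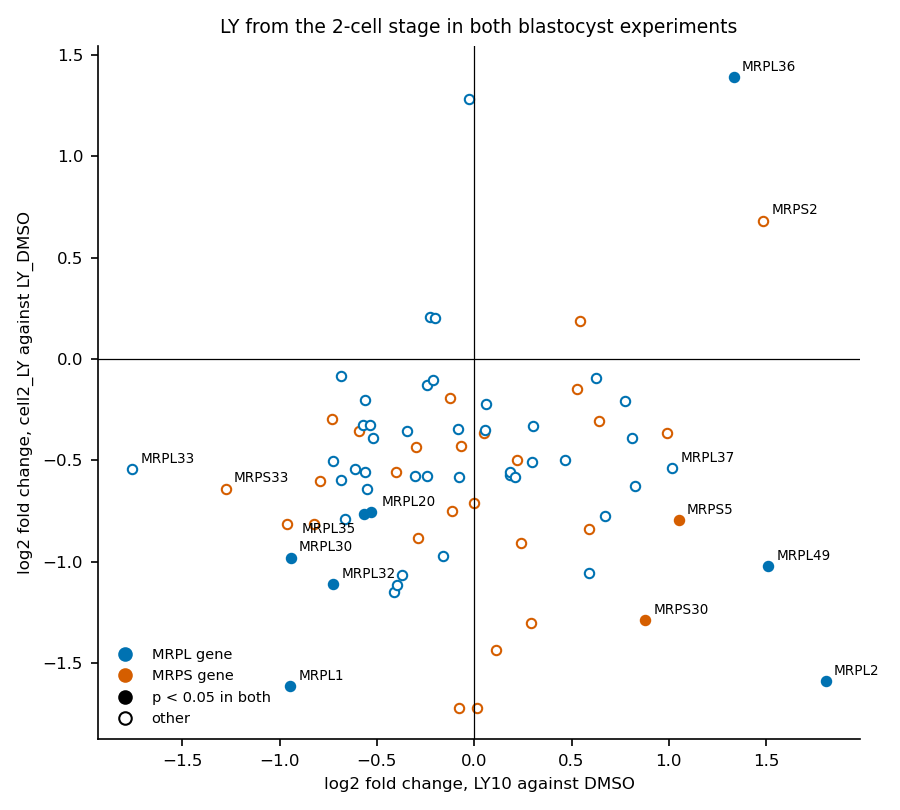
The log2 fold change of each of the 77 members in cell2_LY against LY_DMSO, plotted against that in LY10 against DMSO, filled where the unadjusted p is under 0.05 in both. Of the 10 filled points 5 lie at lower left, 4 at lower right and 1, MRPL36, at upper right.

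With LY from the 16-cell stage few members were called. Against LY_DMSO only MRPL2 fell, with a log2 fold change of -1.07 (SE 0.33) and an adjusted p of 0.557 in limma, and 0 members rose, where 1.97% of genes were called lower and 3.25% higher. The call was lost without cell16_LY replicate 1 and under quantile normalization, while 3 members were called lower without LY_DMSO replicate 1 and 2 without cell16_LY replicate 2. MRPL12 (-0.97), MRPL15 (-0.62) and MRPS31 (-0.85) had a p under 0.05 within the fold, and the p alone gave 4 members lower and 0 higher, where 3.25% and 4.37% of all genes were. MRPL12 had 66.2 and 125 FPKM in LY_DMSO and 42.0 and 51.4 FPKM in cell16_LY, with the vehicle libraries far apart.

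Of the 77 members 61 were below 0 in cell16_LY, with a median of -0.20 against -0.01 over all genes. The members with the smallest p above 0 were MRPL36 at 0.67 (SE 0.50), MRPL51 at 0.39, MRPL57 at 0.31 and MRPL9 at 0.22, and 0 of them passed. MRPS12 at 0.08 and MRPL45 at -0.12 had signs that turned when some libraries were left out. MRPS30 (-0.45), MRPS18A (-0.54), MRPL11 (-0.49), MRPL58 (-0.25) and MRPL10 (-0.18) were below 0 with intervals that include it. The comparison shares its vehicle libraries with that of cell2_LY. No member passed adjustment, nor did any gene, with limma or with voom weights, which gave the same counts by p.

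Set directly against cell2_LY, cell16_LY blastocysts had 4 members called higher and 1 lower, where 5.58% and 5.77% of genes were. MRPS10, MRPS35, MRPL1 and MRPL39 were higher and MRPL40 was lower. MRPS10 had 41.2 and 77.1 FPKM in cell2_LY and 120 and 135 FPKM in cell16_LY, a log2 fold change of 1.17 (SE 0.33) with an adjusted p of 0.193 in limma. MRPL1 had 25.6 and 68.7 FPKM in cell2_LY and 106 and 101 FPKM in cell16_LY, a log2 fold change of 1.30 (SE 0.43). MRPL39 was at 1.08 (SE 0.36) and MRPL40 at -1.14 (SE 0.40).

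Over the members, 64 of 77 were above 0, with a median of 0.38 against 0.04 over all genes. The p alone gave 12 higher and 2 lower, where 10.1% and 7.73% of all genes were, and no member or gene passed adjustment, nor did one under voom weights. The size of the members' median also rested on cell2_LY replicate 1. Without it the median was 0.08, and without replicate 2 it was 0.65, against 0.02 over all genes in both cases. Leaving out cell16_LY replicate 1 gave a median of 0.36 against 0.03, and replicate 2 gave 0.33 against 0.05. With reads on genes as library size 1 member was called higher and 2 lower, where 2.89% and 8.66% of all genes were. The median was then 0.17, while the median over all genes moved to -0.18. Quantile normalization gave 2 higher and 1 lower, where 5.33% and 5.47% of all genes were. Its median was 0.18 against 0.01 over all genes.

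MRPL48 (0.86), MRPL19 (0.72), MRPS31 (0.87), MRPS22 (0.86) and MRPL49 (0.70) were among the 8 higher with a p under 0.05 within the fold. MRPS2 was lower at -0.90 (SE 0.32). MRPL2 at 0.52, MRPS30 at 0.84, MRPL45 at 0.46, MRPS12 at 0.45 and MRPS18A at 0.37 had intervals that include 0. MRPL36 was at -0.72, MRPL23 at -0.37, MRPL12 at -0.19 and MRPL10 at -0.08. MRPL11 and MRPL58, both at 0.08, turned negative with reads on genes as library size and under quantile normalization.

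In bESCs 0 of 76 tested members were called, where 0.0375% of 16012 genes were called higher and 0.0375% lower, and in limma 0 had a p under 0.05, where 0.0999% of genes did in either direction. Under voom weights 0 members had a p under 0.05 as well. The log2 fold changes ran from -0.33 for MRPS35 to 0.27 for MRPS14, with a median of 0.01 against -0.01 over all genes. For 68 members the 95% interval lay wholly between -1 and 1, and for 14 between -0.5 and 0.5. With the culture number as a block, MRPS14 and MRPS25 were higher and MRPS35 and MRPL20 lower with a p under 0.05, where 3.44% and 4.53% of all genes were. None of the 4 was past the fold or had an adjusted p under 0.05 in limma (the smallest was 0.297), while 116 genes had one. The 2 numbers are too few to show that they pair the cultures.

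MRPS35 had 18.2 and 17.5 FPKM in bESC_tifx and 15.4 and 13.1 FPKM in bESC_LY (log2 fold change -0.33, 95% interval -0.84 to 0.18). MRPS25 had 48.7 and 51.6 FPKM in bESC_tifx and 60 and 57.5 FPKM in bESC_LY (0.23, -0.16 to 0.62). In both the groups did not overlap. MRPS14 (0.27), MRPL33 (0.21) and MRPS5 (0.11) had the next smallest p above 0, and MRPS24 (-0.24), MRPL20 (-0.17) and MRPL9 (-0.09) below it. MRPL2, which was called in all comparisons with vehicle in blastocysts, had 42.8 and 40.4 FPKM in bESC_tifx and 46.3 and 41.9 FPKM in bESC_LY (0.08, -0.32 to 0.49). In the bESC annotation it overlaps CUL7 on its strand, with 9247 to 12869 reads.

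The levels went with the culture number, which the labels give as 2 or 3 in both groups. The members summed to 2916 and 3017 FPKM in the number 2 cultures and to 2412 and 2391 FPKM in the number 3 cultures. For 61 of the 76 both number 2 cultures were above both number 3 cultures, and for 6 below, namely MRPL3, MRPL4, MRPL15, MRPL33, MRPL38 and MRPL40. Over all genes tested these shares were 37.1% and 36.7%. MRPL45 had 109 and 107 FPKM in number 2 against 45.0 and 46.7 FPKM in number 3, and its interval for LY was the widest, from -1.57 to 1.60. MRPS14 (0.27), MRPS36 (-0.12), MRPS18A (0.04), MRPL36 (0.12), MRPS30 (-0.06), MRPL10 (0.12), MRPL11 (0.03), MRPL12 (-0.06), MRPS12 (0.04) and MRPL45 (0.01) had signs that turned when 1 culture was left out. MRPL58 was at 0.12, with an interval from -0.33 to 0.56.

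**Figure D5:**
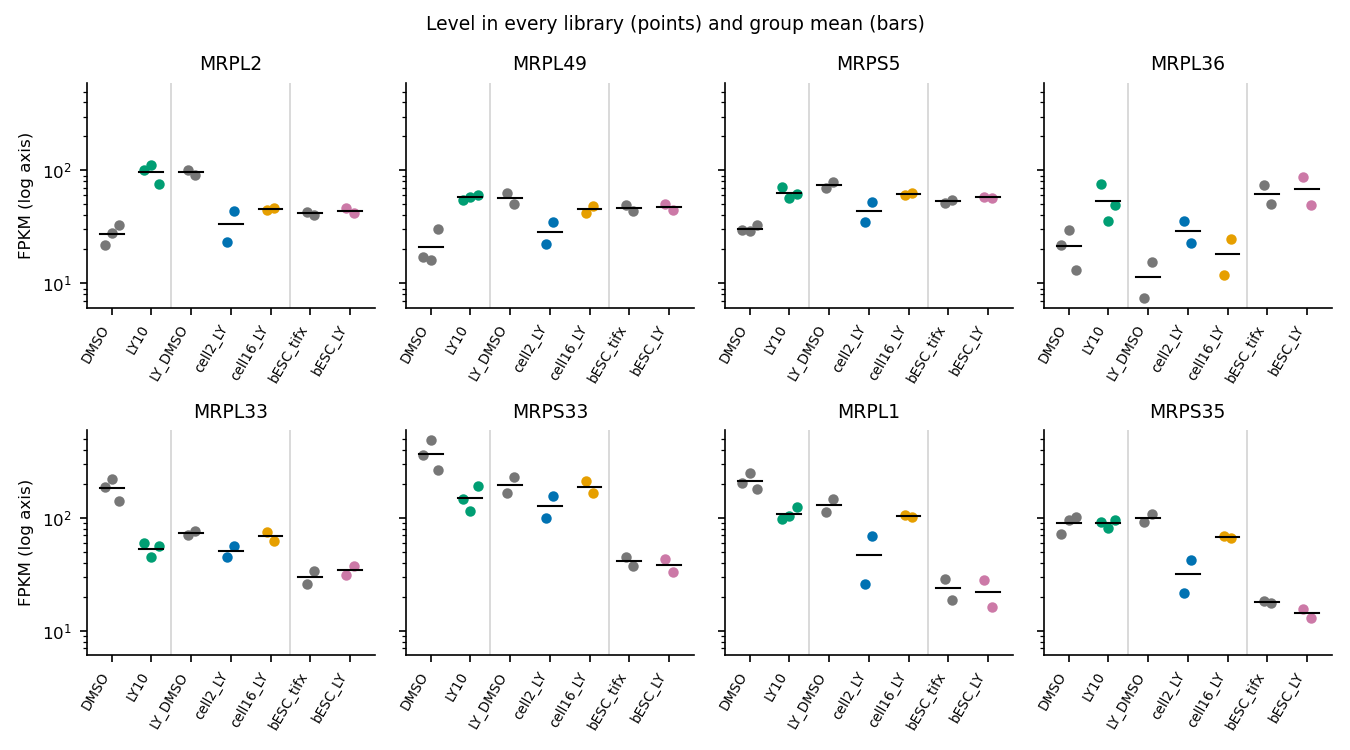
The level in FPKM, on a log axis, of 8 members in each of the 16 libraries (points) with the group mean (bars), the 3 tables being separated by grey lines because they were scaled apart. MRPL2, MRPL49 and MRPS5 are higher in LY10 than in DMSO and lower in cell2_LY than in LY_DMSO, while MRPL36 is higher under LY in both.

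Other genes of mitochondrial translation were taken from lists chosen with earlier results of these data known. In LY10 the ribosomal proteins that carry other names had 1 of 5 called, PTCD3, which rose by 1.12. Of 16 tested translation factors 1 rose, OXA1L (1.10), the insertase that places new proteins in the inner membrane, and 0 fell. Of 25 assembly factors of the ribosome 4 rose and 0 fell, among them METTL17 (1.60) and ERAL1, which act on the small subunit. Of 17 mitochondrial aminoacyl-tRNA synthetases 4 rose and 0 fell, among them CARS2 (1.99) and FARS2 (1.04). Of 14 genes for mitochondrial DNA and RNA upkeep and of the 13 proteins the mitochondrial genome encodes 0 were called. Per list these counts stand beside 6.20% of all genes higher and 8.51% lower. With each library left out the assembly factors had 3 to 5 higher and the synthetases 2 to 5, where 4.84% to 9.46% of all genes were. In the order ribosomal proteins, translation factors, assembly factors, synthetases, upkeep genes and encoded proteins, the medians were 0.32, 0.28, 0.32, 0.52, 0.17 and -0.01.

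In cell2_LY, where 8.34% of all genes were called lower and 8.71% higher, 0 of the 5 ribosomal proteins with other names were called. Of the assembly factors 3 fell, with METTL17 at -1.20 and FASTKD2 at -1.44, and 1 rose, the rRNA methyltransferase MRM1 (1.16). Of 15 tested translation factors 3 fell, with MTFMT at -1.42 and TSFM at -1.13. Of the DNA and RNA upkeep genes 6 of 14 fell, with HSD17B10 at -1.55 and TFB2M at -1.12. Of the encoded proteins 2 fell, ND4L (-1.79) and ATP8 (-1.58). Both are short reading frames that overlap a neighbour, and the part of this in their counts was not tested. CARS2 (1.63) and AARS2 (1.29) rose and RARS2 fell (-1.14). Without cell2_LY replicate 1 fewer assembly factors, translation factors and upkeep genes were called lower, as over all genes. The calls of TSFM, ATP8, AARS2 and RARS2 were then lost. The medians, in the order above, were -0.51, -0.59, -0.26, 0.13, -0.87 and -0.25. CARS2 and MRM1 were called higher in both experiments, while METTL17 was called higher in LY10 and lower in cell2_LY.

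In cell16_LY against LY_DMSO 0 genes of these 6 lists were called, where 1.97% of all genes were called lower and 3.25% higher. Against cell2_LY, 5.58% of all genes were called higher and 5.77% lower. There 1 assembly factor (FASTKD2, 1.32) and 3 upkeep genes (MTERF1 at 1.13 among them) were higher. So were 3 encoded proteins (ND4L at 1.79 and ND5 at 1.43 among them), and AARS2 was lower (-1.26). Without cell2_LY replicate 1 fewer upkeep genes and encoded proteins were called higher, as over all genes, and AARS2 was not called. In the bESCs 0 genes of these lists were called, and 0 had a p under 0.05.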

How the data were processed

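Per the authors' methods, blastocyst cDNA was amplified by PCR (SMART-Seq), and reads were processed with fastp, aligned (both STAR and HISAT2 are named) and counted with featureCounts. The submitters' processing notes name HISAT2 2.0.5, featureCounts 1.5.0-p3, StringTie 1.3.3b and DESeq2 1.20.0. The genome build is not given in the sources used here. In the blastocyst tables the start and end of 35799 of 36219 genes (98.8%) and of 78 of 78 members are those of RefSeq on ARS-UCD2.0. The deposited values are FPKM, although named as normalized counts, and the tables also hold the authors' fold changes and p-values, which were not used.

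FPKM multiplied by gene length gave whole reads for 100% of values (tolerance 0.02 reads) and the authors' library size. In the second table this size was proportional to median-of-ratios size factors computed from all reads, so that scaling by them gave the same values there, and it was within 1.26% of them in the first table and 0.181% in the bESC table. Reads were divided by this size and multiplied by its geometric mean over the table (10651692, 15246235 and 30547774). The test, for genes whose mean was 10 or more, was that of limma 3.58.1 run in R 4.3.3 (lmFit, eBayes with a trend, two-sided) on log2(normalized count + 1), with Benjamini-Hochberg adjustment over all tested genes. The groups of the second table shared 1 fit. The methods call the samples of a group biological replicates, but no source used here says whether blastocysts came from separate fertilizations or cultures from separate lines, so p-values measure only the spread between these samples. The methods were tested on simulated counts, drawn independently for each gene and without shifts shared by a library. That test therefore does not cover such shifts in these data. Python 3.11.15, numpy 2.4.6, pandas 2.3.3 and matplotlib 3.10.9 were used for tables and figures.

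The members and gene lists were chosen with earlier results of these data known. Members were named by the smallest p in each direction (10 higher and 5 lower in LY10, 4 and 4 elsewhere, mean of at least 50 normalized counts), by role, and, beyond that rule and after their values were seen, where they were called or past the p. From the other lists the 2 smallest p in each direction were taken, of which those called are given, with MRM1 added after its values were seen. The alternatives changed the pseudocount (0.5 or 5), dropped the filter or raised it to 50, scaled by reads on genes, median-of-ratios or quantiles, used voom weights, took log2(FPKM + 1) for genes averaging 0.5 FPKM or more, added the replicate number as a block, fitted the 2 compared groups alone, or left out each library.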

Additional observations from a re-analysis of the deposited data

How the results depend on the processing

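In LY10 against DMSO the counts of 6 higher and 2 lower were 4 and 3 under quantile normalization, which moved the median over all genes from -0.05 to 0.07 and turned MRPS12 to -0.00138. With each library left out the members lower ran from 2 to 6, the median from -0.29 to 0.0162 (without LY10 replicate 2) and MRPS12 from -0.10 to 0.17. In cell2_LY against LY_DMSO the members lower were 7 with reads on genes as library size and 6 under quantile normalization. The shares of all genes called lower were then 4.63% and 7.43%. The medians of the members were -0.32 and -0.29, and MRPL10 was at 0.14 and 0.12. With each library left out the members higher ran from 0 to 2, the members lower from 4 to 29, the median from -0.82 to -0.26 and MRPL10 from -0.23 to 0.0477. In cell16_LY against LY_DMSO 0 members were lower under quantile normalization, where 2.11% of all genes were. Left-out libraries moved MRPL45 from -0.34 to 0.10 and MRPS12 from -0.13 to 0.30. In cell16_LY against cell2_LY reads on genes gave 1 higher and 2 lower, MRPL11 at -0.13 and MRPL58 at -0.13, quantile normalization gave 2 higher, MRPL11 at -0.21 and MRPL58 at -0.12, and log2(FPKM + 1) gave 0 lower. Left-out libraries gave 0 to 21 higher, 0 to 2 lower, a median from 0.0792 to 0.65, MRPL10 from -0.22 to 0.0548, MRPL11 from -0.26 to 0.42, MRPL58 from -0.0591 to 0.22 and MRPS18A from -0.0521 to 0.79. In the bESCs left-out cultures moved the median from -0.17 to 0.20, MRPS14 from -0.0231 to 0.57, MRPL10 from -0.12 to 0.35, MRPL11 from -0.16 to 0.22, MRPL12 from -0.21 to 0.0906, MRPL36 from -0.29 to 0.53, MRPL45 from -0.62 to 0.65, MRPS12 from -0.23 to 0.30, MRPS18A from -0.40 to 0.48, MRPS30 from -0.40 to 0.28 and MRPS36 from -0.57 to 0.34. In cell16_LY against cell2_LY the 21 members came without cell2_LY replicate 2, where the share of all genes called higher rose as well. The 0 higher came without cell2_LY replicate 1, where that share fell. With a single blastocyst or culture left in an arm, it is assumed to vary like the others. The cause of these moves was not tested.

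The replicate numbers could not be shown to pair the samples. Correlations of same-numbered deviations were -0.12, 0.17 and -0.10 in the first table. They were 0.12, -0.13 and -0.23 in the second table and 0.79 in the bESC table, both of which have only 2 numbers. With the replicate block the members called were 6 and 2 in LY10, 2 and 13 in cell2_LY, 0 and 1 in cell16_LY, 4 and 1 in cell16_LY against cell2_LY and 0 and 0 in the bESCs, as without it. The p alone then gave 11 higher and 12 lower in LY10 and 2 and 2 in the bESCs, where 116 genes had an adjusted p under 0.05.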
